A study of Mus musculus with 8 samples.

Results

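The genes described here are 8 members of the interleukin-1 (IL-1) cytokine system. They are the ligands Il1b, Il33 and Il18, the antagonist Il1rn, the receptors Il1r1 and Il1rl1, the shared co-receptor Il1rap and the decoy receptor Il1r2. The files write them il1b, il33, il18, il1rn, il1r1, il1rl1, il1rap and il1r2. They were taken by symbol from a table of 22558 genes, and all 8 passed the filter on low values that left 14847 genes. The list was selected on family membership, with the fold changes of sorted FAP+ cells over cultured fibroblasts already in view. Their values against the fibroblasts are therefore given as a description with no test, and tests of these genes are given only between tissues.

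RNA was sequenced from 8 mouse libraries, 2 for each of 4 groups, prepared in duplicate experiments. In 3 groups the cells carried fibroblast activation protein (FAP), a serine protease on the surface of stromal cells, and were sorted after dissociation of pancreas, skeletal muscle or visceral adipose tissue. The remaining group held mouse embryonic fibroblasts (MEFs) that lacked FAP, which were sorted, cultured for 3 passages and sorted a second time. The labels give no strain, age, treatment or number of animals. FAP status and the step from tissue to culture change together between these groups and cannot be told apart. For the pancreas the labels name stellate cells. The stellate cell marker Lrat was at 0.104 and 0.312 CPM in these libraries, Gfap at 0.104 and 0.468 CPM, and Cygb at 577 and 838 CPM. The cells are therefore called FAP+ pancreas cells. All 10 defining stromal markers were above 0 in every library. Their summed level was 47200 to 60600 CPM in adipose, 39600 to 42900 in muscle, 25200 to 28700 in pancreas and 10600 to 11300 in MEFs.

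IL-1β is made as a precursor, is cut by inflammatory caspases, and signals when IL-1 receptor 1 pairs with the accessory protein encoded by Il1rap. The antagonist encoded by Il1rn occupies the same receptor without recruiting the accessory protein, and the receptor encoded by Il1r2 binds IL-1 but has no signalling domain. IL-33 is a nuclear alarmin of stromal and barrier cells, and its receptor ST2, encoded by Il1rl1, uses the same accessory protein on mast cells, group 2 innate lymphoid cells and regulatory T cells. ST2 also has a soluble form that traps IL-33, first cloned from stimulated mouse fibroblasts. In adipose tissue and muscle, IL-33 from stromal cells is known to maintain regulatory T cells.

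Levels are normalised fragments in CPM, given for library 1 and then library 2 of a group. They came from the authors' bias-adjusted estimated counts, scaled with TMM factors. The libraries held 15516319 to 27759399 fragments. The actin-severing gene Gsn took 10.9 to 17.8% of the FAP+ libraries. TMM factors were 0.516 and 0.889 in adipose, 1.01 to 1.13 in muscle and pancreas, and 1.31 in both MEF libraries. Adipose library 1 stood apart. Its estimated fragments per recovered read had a median over genes of 0.841, against 1.07 to 1.2 in the other 7 libraries. Genes are compared with each other only in FPKM, which scales by length, and with care, since the RNA was amplified from its poly(A) tail. Each gene is the sum of its transcripts, so soluble and membrane ST2, and secreted and intracellular forms of the antagonist, were not told apart. In these bulk samples, fewer cells of a type and less RNA per cell cannot be told apart.

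The promoters of 4 of the genes are shown because these genes had the widest gaps between FAP+ cells and MEFs, Il1rn and Il1rl1 with high levels in MEFs, Il33 with high levels in FAP+ cells, and Il1r2 with high levels in muscle and adipose. Each sequence is the 250 bases before an annotated RefSeq start of build GRCm38.p6, on the plus strand, read 5′ to 3′. The deposited tables use another build and give no start, so which of these starts was used in the cells is unknown. The motifs searched, on both strands, were AP-1 (TGANTCA), NF-kB, the TATA box (TATAAA) and the CArG box, and capitals mark a match. Positions count back from the start.
Il1rn, start 1 of 3, chr2:24336610-24336859: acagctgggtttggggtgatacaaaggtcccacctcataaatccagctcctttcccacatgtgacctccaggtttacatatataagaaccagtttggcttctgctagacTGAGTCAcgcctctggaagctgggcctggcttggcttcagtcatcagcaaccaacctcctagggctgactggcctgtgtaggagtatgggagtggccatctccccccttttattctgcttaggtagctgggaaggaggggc
Il1rl1, start 1 of 2, chr1:40429320-40429569: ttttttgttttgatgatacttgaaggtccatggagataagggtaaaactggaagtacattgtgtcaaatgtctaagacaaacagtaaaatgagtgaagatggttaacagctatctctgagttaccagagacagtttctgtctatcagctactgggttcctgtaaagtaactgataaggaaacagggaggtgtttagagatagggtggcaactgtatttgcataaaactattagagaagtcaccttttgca
Il1rl1, start 2 of 2, chr1:40439379-40439628: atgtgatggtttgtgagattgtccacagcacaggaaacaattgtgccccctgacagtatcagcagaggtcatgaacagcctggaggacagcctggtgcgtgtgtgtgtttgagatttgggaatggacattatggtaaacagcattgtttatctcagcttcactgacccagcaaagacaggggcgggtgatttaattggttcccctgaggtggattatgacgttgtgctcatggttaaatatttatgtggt
Il33, start 1 of 2, chr19:29924863-29925112: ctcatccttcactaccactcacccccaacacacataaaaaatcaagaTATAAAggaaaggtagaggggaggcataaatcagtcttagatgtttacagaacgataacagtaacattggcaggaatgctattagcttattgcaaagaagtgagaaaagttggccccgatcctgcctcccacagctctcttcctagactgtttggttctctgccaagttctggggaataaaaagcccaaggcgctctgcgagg
Il33, start 2 of 2, chr19:29945540-29945789: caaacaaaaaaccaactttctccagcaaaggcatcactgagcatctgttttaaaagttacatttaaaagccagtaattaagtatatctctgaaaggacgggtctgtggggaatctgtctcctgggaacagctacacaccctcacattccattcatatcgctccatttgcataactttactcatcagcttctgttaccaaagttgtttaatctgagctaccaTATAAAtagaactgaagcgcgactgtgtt
Il1r2, the only start, chr1:40085843-40086092: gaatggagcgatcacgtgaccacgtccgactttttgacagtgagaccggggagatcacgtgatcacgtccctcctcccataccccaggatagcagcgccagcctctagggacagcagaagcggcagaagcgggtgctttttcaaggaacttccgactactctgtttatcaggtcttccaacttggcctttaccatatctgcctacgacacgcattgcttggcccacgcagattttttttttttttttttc

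The Il1rn window held an AP-1 match at -141 to -135. The AP-1 letters occurred in 6.75% of 32851 such windows over all genes. The Il33 windows held TATA box letters at -203 to -198 of start 1 and at -29 to -24 of start 2, letters found in 12.4% of all windows. Of the starts not printed, start 3 of Il1rn held NF-kB letters at -51 to -42, found in 1.41% of windows. The Il1b window held TATA box letters at -31 to -26, and the Il18 window held them on the opposite strand at -175 to -170. Neither Il1rl1 window and no Il1r2 window held any of the 4 motifs. The CArG box, found in 1.47% of all windows, matched none of the 13 windows of the 8 genes. A match describes letters only, and none was tested for binding.

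The receptor genes Il1r2, Il1r1, Il1rl2, Il1rl1, Il18r1 and Il18rap lie next to each other on chromosome 1 in that order in the same annotation. Il1rn and Il1b lie on chromosome 2, Il18 on chromosome 9, Il1rap on chromosome 16 and Il33 on chromosome 19. The neighbours Il1r2, Il1r1 and Il1rl1 had 3 different patterns, described below.

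Of the ligands, the alarmin gene Il33 was high in all FAP+ populations and low in MEFs. It had 41.9 and 47.9 CPM in adipose, 259 and 166 CPM in muscle and 205 and 269 CPM in pancreas, against 1.29 and 0.0304 CPM in MEFs. Every FAP+ library stood above both MEF libraries, and MEF library 2 held a single Il33 fragment. The fitted log2 fold change over MEFs was 6.07 ± 1.04 (SE) in adipose, 8.32 ± 1.13 in muscle and 8.47 ± 1.14 in pancreas. Without MEF library 1 these came to 10.25, 12.49 and 12.66, values that rest on that single fragment and are not exact sizes. The size thus rests on which MEF library is used, though not the order of the groups.

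Among the tissues, Il33 was lowest in adipose, where both libraries lay below the 4 of muscle and pancreas. The mean was 212 ± 65.4 CPM in muscle and 44.9 ± 4.3 CPM in adipose (SD, n = 2 each), a log2 difference of 2.24 ± 0.84 that did not pass the test (edgeR adjusted p = 0.164). In pancreas the mean was 237 ± 45.1 CPM, and its log2 difference from adipose was 2.4 ± 0.85 (edgeR adjusted p = 0.124). Both differences passed with limma on log2(FPKM + 1), with limma on genes at 1 FPKM or more and without either MEF library, and that of pancreas also with only the groups compared. Pancreas and muscle overlapped, with a log2 difference of 0.16 ± 0.8 (edgeR adjusted p = 0.99). Recovered whole reads gave the same order, with 933 and 939 reads in adipose, 2634 and 2447 in muscle and 3161 and 3294 in pancreas, against 28 and 1 in MEFs. Mesothelial cells, which can also make IL-33, had 6 of 6 markers above 0 in every group. Their summed level was 77.8 to 97.7 CPM in adipose, 5.58 to 7.91 in muscle, 69.6 to 176 in pancreas and 40.3 to 47 in MEFs. Different genes made up these sums, so they do not compare mesothelial content between groups. The highest was Wt1 in adipose (64.3 and 92.6 CPM), Krt8 in pancreas (111 and 35.9 CPM) and Krt19 in MEFs (28 and 35.7 CPM). Keratins are also epithelial markers, and acinar markers summed to 73.7 to 164 CPM in pancreas, against at most 3.66 in the other groups. The part of mesothelial, epithelial or acinar cells in the Il33 level was not tested.

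Il18, a cytokine that is also made as a precursor for caspase cleavage, was again higher in FAP+ cells than in MEFs. It had 19.7 and 7.5 CPM in adipose, 39.2 and 23.7 CPM in muscle and 5.42 and 6.08 CPM in pancreas, against 1.38 and 1 CPM in MEFs. No FAP+ library overlapped with MEFs, and the muscle libraries stood above all others. The log2 fold change over MEFs was 3.5 ± 0.53 in adipose, 4.72 ± 0.55 in muscle and 2.27 ± 0.51 in pancreas. Pancreas was 5.46-fold lower than muscle, a log2 difference of -2.45 ± 0.49 (edgeR adjusted p = 0.0409). That call held in 2 of 8 fits that left out a library and was lost without either library of muscle, pancreas or MEFs, while the difference stayed between -2.77 and -2.04. Muscle against adipose (log2 1.22 ± 0.47, edgeR adjusted p = 0.173) and pancreas against adipose (-1.23 ± 0.48, edgeR adjusted p = 0.156) did not pass. The first passed without adipose library 1 and with limma on genes at 1 FPKM or more, and the second without adipose library 2.

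Il1b, the ligand of Il1r1, was scarce everywhere and came mostly from adipose. It had 2.9 and 1.5 CPM in adipose (38 and 37 fragments), 0.0638 and 0.0858 CPM in muscle (1 and 2 fragments) and 0 and 0.104 CPM in pancreas (0 and 2 fragments). Both MEF libraries had 0 fragments, and the floor of 3 fragments per library was 0.09 and 0.0911 CPM there. The adipose mean was at least 24.3-fold higher than MEFs at that floor. Muscle and pancreas were at or under the floor, as MEFs were, so no fold against MEFs is given for them.

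Both adipose libraries stood above the 4 libraries of muscle and pancreas for Il1b. The ratio of muscle to adipose was 0.0388 (95% counting interval 0.00782 to 0.118), and that of pancreas to adipose was 0.0262 (0.00312 to 0.098). Il1b passed the filter on low values only through adipose, so these ratios are given as a description with no test. Markers of macrophages and monocytes, which make IL-1β, were also highest in adipose, and their part in the Il1b difference was not tested. All 14 were above 0 there, summing to 40.2 to 84.8 CPM, with 12 or 13 above 0 and 17.8 to 21.7 CPM in muscle, 12 and 9.46 to 9.9 CPM in pancreas, and 8 and 5.22 to 7.25 CPM in MEFs. Cd14 made up most of the sum in muscle (17.7 and 14.7 CPM) and pancreas (6.2 and 5.66 CPM), against 18.3 and 19.4 CPM in adipose. The myeloid adaptor Tyrobp had 3.35 and 0.406 CPM in adipose and 0 in the other libraries. The pan-leukocyte gene Ptprc had at most 0.649 CPM in any library. The other IL-1 ligand gene, Il1a, had 0 to 3 fragments in every library and did not pass the filter.

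**Figure D1:**
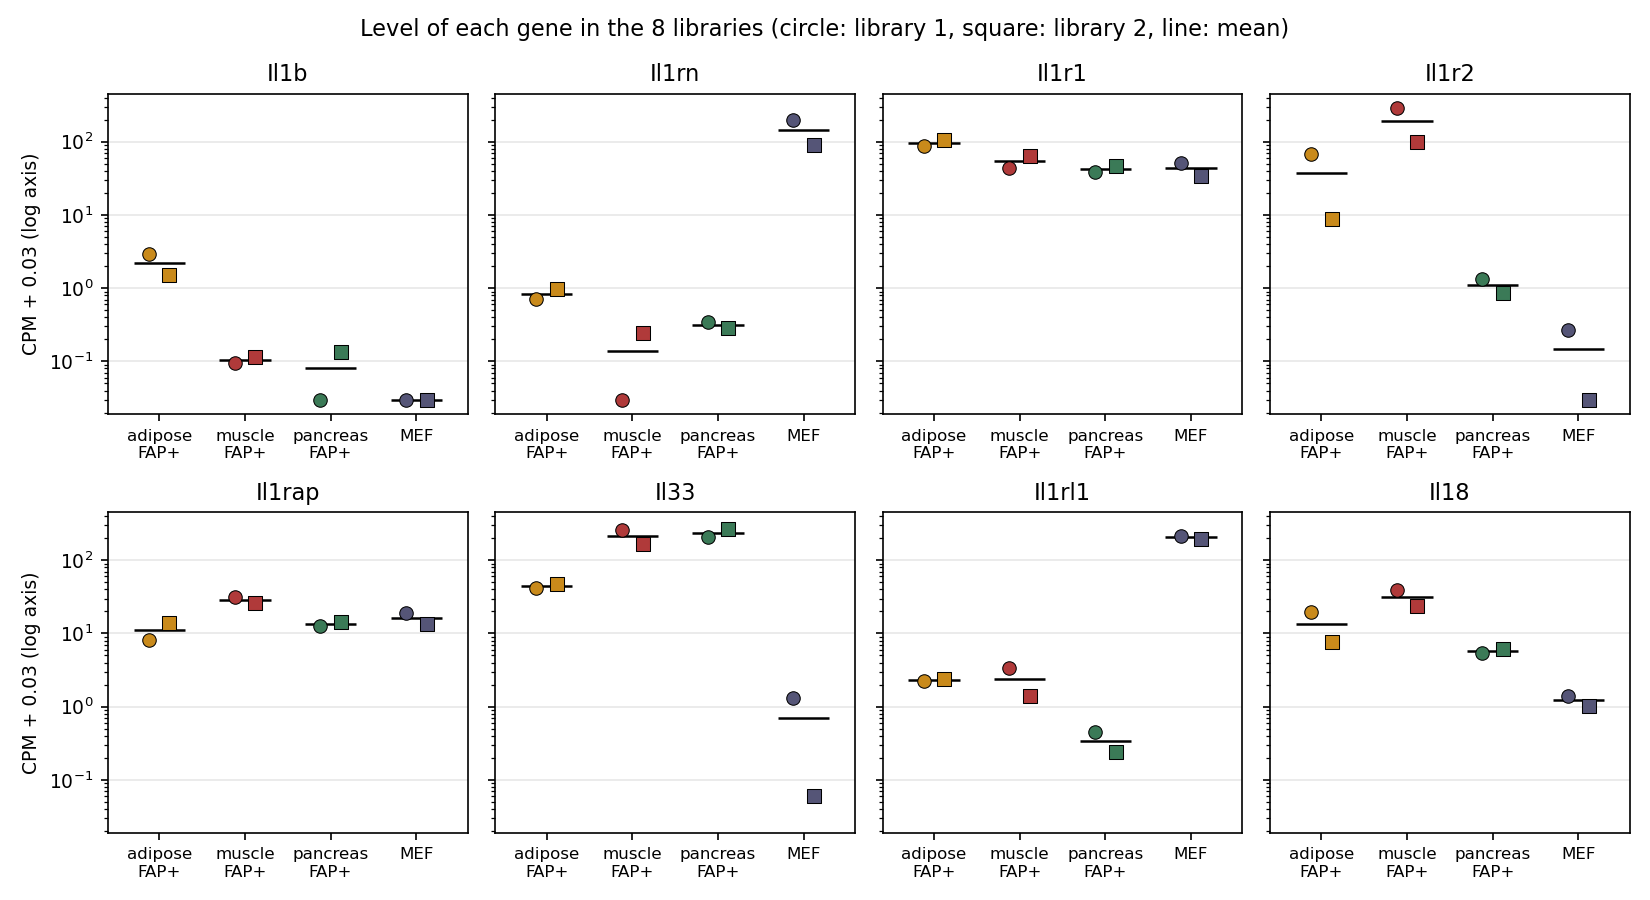
Level of each of the 8 genes in every library, as CPM + 0.03 on a log axis shared by all panels, with circles for library 1, squares for library 2 and lines for the mean of a group. Il1rn and Il1rl1 were high in MEFs, Il33 and Il18 were higher in every FAP+ library than in MEFs, Il1r2 was high in muscle and adipose, and Il1r1 and Il1rap lay within a narrow range in all groups.

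The signalling receptor Il1r1 was present in every group and highest in adipose. It had 87.1 and 105 CPM in adipose, 44.3 and 64.3 CPM in muscle and 38.4 and 46.5 CPM in pancreas, against 51.8 and 34.5 CPM in MEFs. Adipose lay above all other libraries, and muscle, pancreas and MEFs overlapped with each other. The log2 fold change over MEFs was 1.15 ± 0.31 in adipose, 0.33 ± 0.31 in muscle and -0.02 ± 0.31 in pancreas. Over the other settings tried, the adipose value ranged from 0.04 to 1.63. Between tissues, pancreas minus adipose was -1.18 ± 0.31 (edgeR adjusted p = 0.0579), muscle minus adipose was -0.82 ± 0.31 (edgeR adjusted p = 0.167) and pancreas minus muscle was -0.36 ± 0.31 (edgeR adjusted p = 0.766), none of them past the threshold. The pancreas and adipose pair passed with RLE scaling, with DESeq2, with recovered reads and without either adipose library, and the muscle and adipose pair with recovered reads.

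Adipose library 1 had fewer estimated fragments of Il1r1 than reads, 1143 against 2014, while adipose library 2 had 2585 fragments against 2202 reads. In FPKM the gene averaged 8.74 ± 4.79 in adipose, 6.5 ± 1.89 in muscle and 5.64 ± 1.16 in pancreas, against 8.03 ± 2.66 in MEFs (SD, n = 2 each). On that scale adipose no longer stood above MEFs. In RPKM, the authors' other length-scaled measure, it did, with 10.8 and 11.2 in adipose, against 7.16 and 4.9 in MEFs. RPKM values were 3.89 and 5.71 in muscle and 4.57 and 4.68 in pancreas. Endothelial cells also carry this receptor. All 6 of their markers were above 0 in the FAP+ libraries, summing to 255 to 300 CPM in adipose, 98.9 to 150 in muscle and 65.5 to 75.7 in pancreas, against 2.88 to 3.51 with 5 or 6 above 0 in MEFs. Most of the sum in muscle and pancreas was Tek, with 86.3 and 102 CPM in muscle and 58 and 68.7 in pancreas, against 51.6 and 83.6 in adipose. Pecam1 had 57.7 and 114 CPM in adipose, 4.08 and 20.2 in muscle and 1.41 and 0.935 in pancreas. Cdh5 had 47.3 and 31.2 CPM in adipose, 1.47 and 5.96 in muscle and 0.156 and 0.052 in pancreas. The part of endothelial cells in the Il1r1 level was not tested.

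The co-receptor Il1rap varied least of the 8 after Il1r1. It had 8.23 and 14 CPM in adipose, 31.6 and 25.9 CPM in muscle and 12.6 and 14.2 CPM in pancreas, against 18.9 and 13.4 CPM in MEFs. In CPM muscle lay above every other library, and adipose and pancreas each overlapped with MEFs. Muscle overlapped with MEFs in FPKM, with 2.3 and 1.97 against 2.27 and 1.49. It also did in RPKM, with 0.946 and 0.761 against 0.985 and 0.731. The log2 fold change over MEFs was -0.53 ± 0.33 in adipose, 0.83 ± 0.33 in muscle and -0.27 ± 0.33 in pancreas. Muscle minus adipose was 1.36 ± 0.33 (edgeR adjusted p = 0.057), pancreas minus muscle was -1.1 ± 0.33 (edgeR adjusted p = 0.151) and pancreas minus adipose was 0.26 ± 0.33 (edgeR adjusted p = 0.66). The first passed with upper quartile scaling, with DESeq2 and without adipose library 2, and the second with only the groups compared and without either adipose library. The bias adjustment weighed on this gene. Its estimated fragments per recovered read were 2.12 to 2.79 outside adipose, against 0.745 and 1.91 in adipose.

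The IL-33 receptor Il1rl1 had the opposite pattern to its ligand. It had 2.21 and 2.35 CPM in adipose, 3.38 and 1.37 CPM in muscle and 0.417 and 0.208 CPM in pancreas, against 213 and 196 CPM in MEFs. Every MEF library lay above every FAP+ library, and both pancreas libraries lay below the other 6. The log2 fold change over MEFs was -6.48 ± 0.5 in adipose, -6.45 ± 0.5 in muscle and -9.33 ± 0.59 in pancreas. Across all settings tried, the value lay between -7.08 and -5.2 in adipose, -7.22 and -5.1 in muscle and -9.91 and -5.45 in pancreas.

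Pancreas was 7.21-fold lower than adipose for Il1rl1 (log2 -2.85 ± 0.54, edgeR adjusted p = 0.0197) and 7.36-fold lower than muscle (log2 -2.88 ± 0.54, edgeR adjusted p = 0.0313). The pancreas level rests on 8 and 4 fragments, against 29 and 58 in adipose and 53 and 32 in muscle. The first call was lost without either pancreas library, and the second held in 3 of 8 fits that left out a library. Both were lost in the 3 limma fits on FPKM, with values down to -0.25 and -0.35, the first also with only the groups compared and the second with recovered reads. Adipose and muscle overlapped, with a log2 difference, muscle minus adipose, of 0.03 ± 0.44 (edgeR adjusted p = 0.977). Mast cells and basophils also carry ST2. Of their 9 markers, 4 or 5 were above 0 in adipose, 6 in muscle, 3 to 6 in pancreas and 5 in MEFs, summing to 4.22 to 5.57 CPM in adipose, 0.558 to 0.765 in muscle, 1.2 to 2.08 in pancreas and 2.25 to 3.48 in MEFs. Kit had 2.67 and 2.23 CPM in adipose, 0.319 and 0.215 in muscle and 1.51 and 0.883 in pancreas, against 0.42 and 0.212 in MEFs. Hdc had 2.59 and 1.87 CPM in adipose and at most 0.261 in the other libraries. The basophil protease gene Mcpt8 went the other way, with at most 0.128 CPM in FAP+ libraries, against 2.88 and 1.85 CPM in MEFs. The receptor chain gene Fcer1a was at 0 in every library. The part of mast cells and basophils in the Il1rl1 level was not tested.

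**Figure D2:**
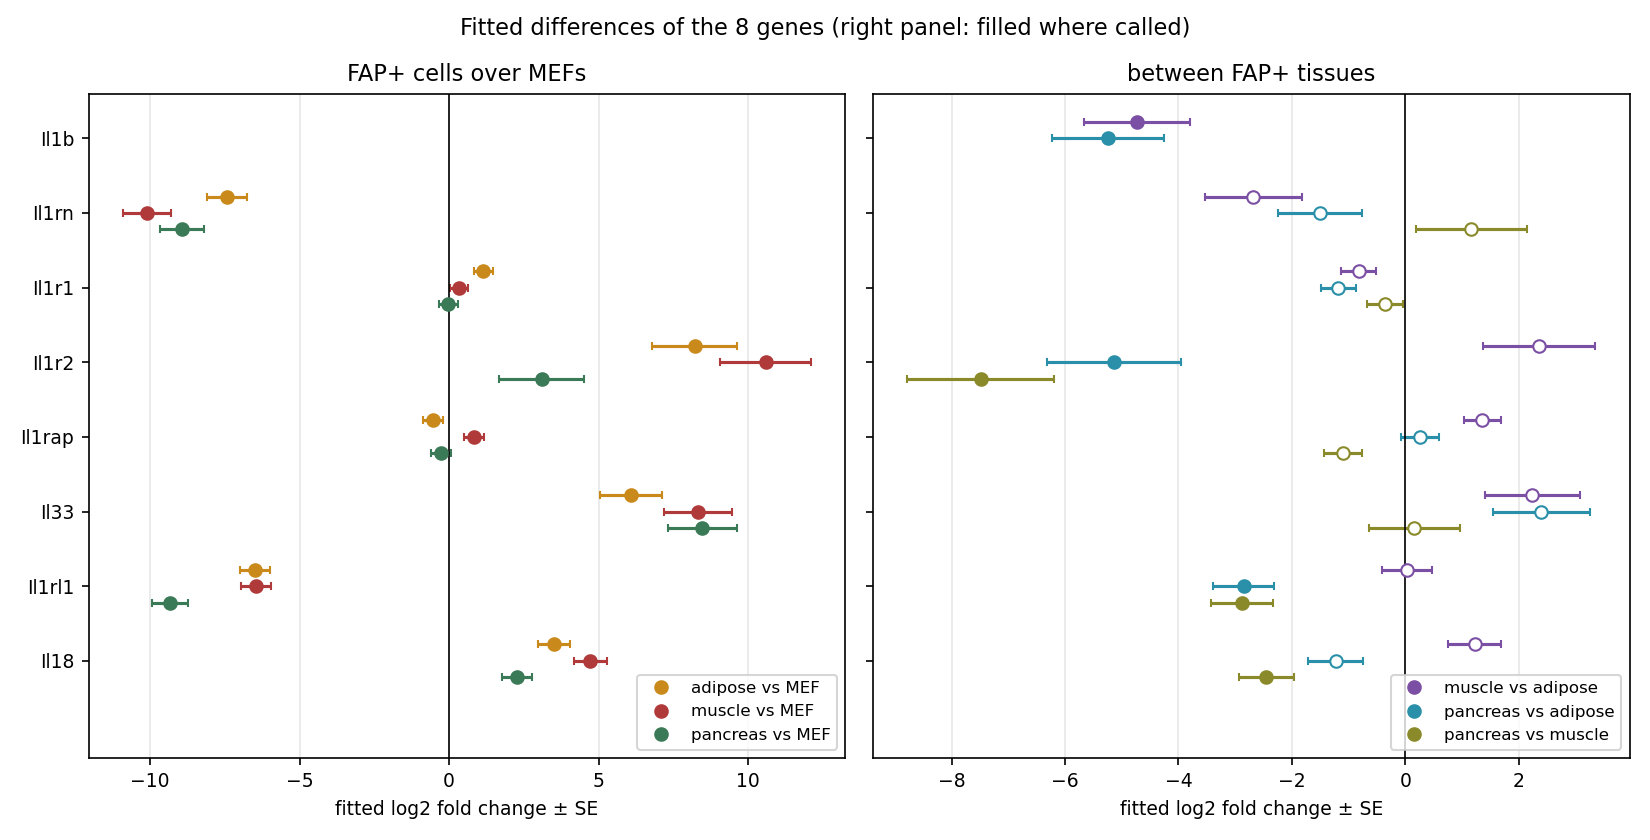
Fitted log2 fold changes of the 8 genes with SE as bars, FAP+ cells over MEFs on the left and between FAP+ tissues on the right, where filled points passed at an adjusted p below 0.05. The values against MEFs carry no test, Il1b is left out where a group had 0 fragments or both groups were at the floor, and the 7 filled points on the right all lie below 0, 2 of them for Il1b, which passed the filter only through adipose.

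The antagonist Il1rn was a MEF gene in these libraries. It had 0.686 and 0.933 CPM in adipose, 0 and 0.215 CPM in muscle and 0.313 and 0.26 CPM in pancreas, against 197 and 89.3 CPM in MEFs. No FAP+ library reached 1 CPM. The log2 fold change over MEFs was -7.43 ± 0.67 in adipose, -10.1 ± 0.8 in muscle and -8.94 ± 0.74 in pancreas. The muscle value rests on 5 fragments, all from library 2. Between tissues none of the differences passed, with muscle minus adipose at -2.68 ± 0.85 (edgeR adjusted p = 0.112), pancreas minus adipose at -1.51 ± 0.74 (edgeR adjusted p = 0.241) and pancreas minus muscle at 1.16 ± 0.98 (edgeR adjusted p = 0.754). Il1rn passed the filter on low values only through MEFs. The tissues had 9 and 23 fragments in adipose, 0 and 5 in muscle and 6 and 5 in pancreas, so small differences were not detectable at this depth. The difference of muscle and adipose passed with DESeq2 only.

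The decoy receptor Il1r2 differed most between tissues. It had 66.9 and 8.76 CPM in adipose, 288 and 99.1 CPM in muscle and 1.3 and 0.831 CPM in pancreas, against 0.24 and 0 CPM in MEFs. The groups followed each other with no overlap, muscle highest, then adipose, pancreas and MEFs. The 2 adipose libraries were far apart, with 877 and 216 fragments. The log2 fold change over MEFs, which held 8 and 0 fragments, was 8.22 ± 1.42 in adipose, 10.58 ± 1.52 in muscle and 3.09 ± 1.43 in pancreas. Without MEF library 1 the MEF group was at 0 and gives no fold.

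Pancreas was 180-fold lower than muscle for Il1r2 (log2 -7.49 ± 1.29, edgeR adjusted p = 0.0236) and 35.1-fold lower than adipose (-5.13 ± 1.18, edgeR adjusted p = 0.0372). Against muscle the call held in all 11 other settings and in 4 of 8 fits that left out a library, being lost without any library of either tissue. Against adipose it held in 8 of the 11 and in 2 of 8, with values from -5.96 to -2.98, being lost with only the groups compared, in 2 limma fits and without any library of muscle, pancreas or MEFs. Muscle minus adipose was 2.36 ± 0.99 and did not pass (edgeR adjusted p = 0.199). It passed without adipose library 1, where it was 4.45 (edgeR adjusted p = 0.0215), and with limma on genes at 1 FPKM or more. Neutrophils also carry this decoy. Their marker sum was 5.52 to 18.7 CPM in adipose, 4.25 to 5.68 in muscle, 3.43 to 5.63 in pancreas and 0.78 to 2.06 in MEFs. Cxcr2 had 2.74 and 3.49 CPM in adipose, 3.06 and 2.36 in muscle and 2.5 and 1.92 in pancreas. Csf3r had 7.62 and 0.811 CPM in adipose, 1.59 and 1.24 in muscle and 2.45 and 1.2 in pancreas. Mpo had 7.01 and 1.05 CPM in adipose and at most 0.261 elsewhere, and S100a8 had at most 0.381 CPM in the FAP+ libraries. The part of neutrophils in the Il1r2 level was not tested.

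Calls of the 8 genes against MEFs are not counted, since these contrasts chose the genes. Between tissues, 1 of 8 was called lower in muscle than in adipose, where 6.12% of all genes were called and 3.78% were lower. Pancreas against adipose had 3 lower of 8 (9.05% of all genes, 5.73% lower) and pancreas against muscle also had 3 lower of 8 (3.67%, 2.14% lower). Leaving out Il1b, which passed the filter only through adipose, the first count was 0 and the second 2 of 7 genes. The 7 include Il1rn, which passed the filter only through MEFs and was not called between tissues. None of the 8 was called higher in these 3 contrasts, where 2.34%, 3.32% and 1.54% of all genes were. The 2 pancreas contrasts share their pancreas libraries, and the 8 genes were chosen with earlier results known.

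Setting partners side by side in FPKM gave ratios that differed by group. The decoy Il1r2 stood to the receptor Il1r1 at a ratio of 5.45 and 0.594 in adipose, 46.1 and 11 in muscle and 0.239 and 0.131 in pancreas, against 0.0347 and 0 in MEFs. Decoy transcripts were thus above receptor transcripts in both muscle libraries and 1 adipose library. The antagonist Il1rn stood to Il1r1 at 0.0107 and 0.0113 in adipose, 0 and 0.00413 in muscle and 0.00997 and 0.0069 in pancreas, against 4.94 and 3.36 in MEFs. Of these inhibitors of IL-1, the decoy was thus above the antagonist in every FAP+ library and below it in both MEF libraries, and in pancreas neither was above the receptor. The ligand Il33 stood to its receptor Il1rl1 at 30 and 32.4 in adipose, 121 and 190 in muscle and 829 and 2260 in pancreas, against 0.00958 and 0.00035 in MEFs. These ratios are descriptions of transcript levels and carry no test.

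**Figure D3:**
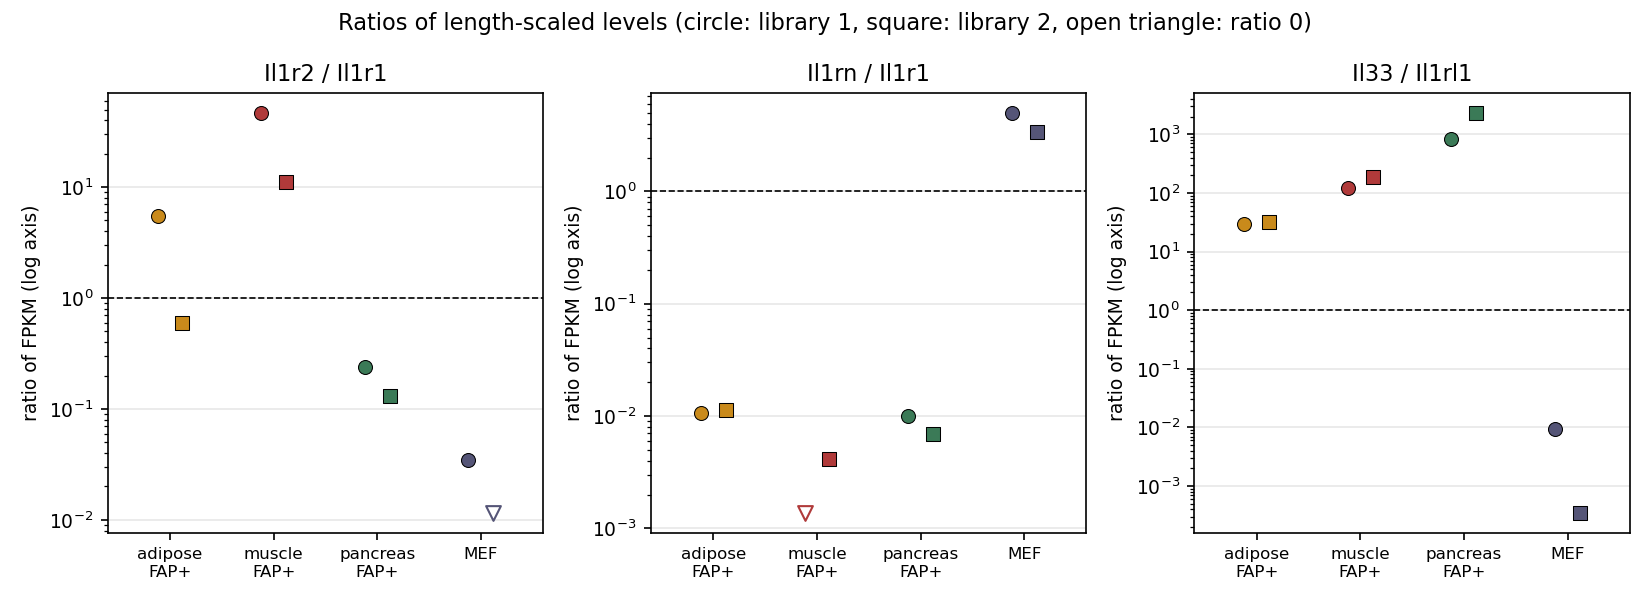
Ratios of FPKM values on a log axis for Il1r2 to Il1r1, Il1rn to Il1r1 and Il33 to Il1rl1 in every library, with a dashed line where both genes have the same level and an open triangle where the ratio was 0. Il33 was above Il1rl1 in all FAP+ libraries and below it in MEFs, and Il1rn was above Il1r1 in MEFs alone.

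For each gene, the 3 genes closest in pattern were those with the highest Pearson correlation of log2(CPM + 1) over the 8 libraries. The points share libraries and group structure, so the values are descriptions. Nearest to Il1rn were Tacc3 (r = 0.998), Gpr176 (0.998) and Mcm8 (0.997), and nearest to Il1rl1 were Asf1b, Foxd1 and Npm1 (0.994 each). Tacc3, Mcm8 and Asf1b are known for spindle assembly, DNA replication and repair, and histone deposition. Il33 was closest to Hspa12a (0.994), Lca5l (0.993) and Lgi3 (0.992), and Il18 to Smurf1 (0.995), Usp54 (0.989) and Igsf1 (0.984). Il1r2 was closest to Slc6a12 (0.988), Nipal3 (0.982) and Bcmo1 (0.977). Il1r1 was closest to Hspa2 (0.982), Abcc4 (0.962) and Gpr116 (0.948), and Il1rap to Utrn (0.973), Kctd9 (0.967) and Glce (0.964). Il1b, whose level was high in adipose alone, was closest to Cfd (0.997), which encodes the adipocyte product adipsin, Fam83a (0.995) and Rbp7 (0.995).

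The rest of the pathway was read from 4 lists of 73 other genes, of which 58 passed the filter. The lists were drawn up with earlier results of these data known. The 3 contrasts with MEFs share the MEF libraries. Of all genes, 50.1% were called in adipose against MEFs (26.9% higher and 23.2% lower), 43.8% in muscle (23.7% and 20%) and 42.5% in pancreas (23.1% and 19.4%). Of 6 tested ligands and receptors, Il18r1, the ligand-binding chain of the IL-18 receptor and a neighbour of Il1rl1 on chromosome 1, stood apart in muscle. It had 12.7 and 7.46 CPM in muscle, 0.0762 and 0.324 CPM in adipose and 0.261 and 0.208 CPM in pancreas, against 0.12 and 0.212 CPM in MEFs. The muscle libraries stood alone, with the other 6 all under 1 CPM. The fitted log2 value was 5.87 ± 0.64 in muscle against MEFs, 5.46 ± 0.65 in muscle against adipose and -5.39 ± 0.64 in pancreas against muscle. Il18r1 passed the filter only through muscle, so these are given as a description with no test. Its partner chain Il18rap had 0 to 2 fragments in each FAP+ library, against 55 and 46 in MEFs, and passed the filter only through MEFs. The list as a whole had 2 higher and 1 lower in adipose against MEFs, 3 and 1 in muscle and 2 and 1 in pancreas, counts that hold Il18r1 and Il18rap and are read for nothing.

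Of 17 tested adaptors and kinases, adipose had 4 higher and 3 lower than MEFs, muscle 5 and 3, and pancreas 5 and 3, shares near those of all genes. Irak3, a kinase-like protein that restrains IL-1 receptor signalling, had the largest rise among them in each tissue. It had 53.6 and 60.9 CPM in adipose, 46.6 and 35.9 CPM in muscle and 21.5 and 23.7 CPM in pancreas, against 3.9 and 2 CPM in MEFs. Every FAP+ library was above both MEF libraries, with log2 fold changes of 4.28 ± 0.38 in adipose (edgeR adjusted p = 0.000148), 3.8 ± 0.37 in muscle (0.000252) and 2.93 ± 0.36 in pancreas (0.000682). The adaptor Myd88, which every signalling IL-1 family receptor uses, rose by 2.38 ± 0.3 in adipose, 1.67 ± 0.29 in muscle and 1.41 ± 0.29 in pancreas on the log2 scale. Peli2, a ubiquitin ligase of this route, rose by 1.92 ± 0.37 in muscle and 1.16 ± 0.36 in pancreas. Ikbkg, which encodes the regulatory subunit of the IkB kinase, fell in all 3 tissues, with log2 values of -2.13 ± 0.3 in adipose, -1.4 ± 0.3 in muscle and -1.36 ± 0.3 in pancreas. The kinase gene Irak2 fell in muscle (-1.65 ± 0.41) and pancreas (-1.82 ± 0.41) and had a value of -0.69 ± 0.39 in adipose (edgeR adjusted p = 0.175). Map3k7, which encodes the kinase TAK1, fell in adipose (-1.2 ± 0.36) and muscle (-1.21 ± 0.36). The call of Ikbkg in pancreas was lost without pancreas library 1 or MEF library 1, and that of Peli2 in muscle without MEF library 1 and in the 3 limma fits. The call of Map3k7 in adipose was lost without either muscle or either MEF library, that of Irak2 in muscle without muscle library 1 or either MEF library, that of Irak2 in pancreas without pancreas library 1 or MEF library 2, and that of Myd88 in pancreas without MEF library 2. For Myd88 the limma fits on FPKM gave no call in any tissue, apart from adipose with genes at 1 FPKM or more. Between tissues, Irak3 was lower in pancreas than in adipose (-1.34 ± 0.34, edgeR adjusted p = 0.049) and Tab1, which encodes a TAK1 partner, was higher (1.32 ± 0.26, edgeR adjusted p = 0.0219). The Irak3 call held in 4 of 8 fits that left out a library and in 4 of 11 other settings, being lost with upper quartile scaling, with no filter, with only the groups compared and in the 3 limma fits among others.

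Of 17 genes for cytokine processing and release, 9 passed the filter. In adipose 7 were higher and 1 lower than in MEFs, in muscle 4 and 1, and in pancreas 5 and 1, where 50.1%, 43.8% and 42.5% of all genes were called. Casp1, named here after its values were seen, is the protease that cuts the IL-1β and IL-18 precursors. It had 6.33 and 4.18 CPM in adipose, 5.68 and 1.42 CPM in muscle and 1.72 and 2.03 CPM in pancreas, and 0 fragments in both MEF libraries. At the floor it was at least 58-fold higher in adipose, 39.2-fold in muscle and 20.7-fold in pancreas. Casp4, the caspase of the non-canonical inflammasome, had 194 and 57.1 CPM in adipose, 14.1 and 13.1 CPM in muscle and 8.08 and 9.15 CPM in pancreas, against 1.08 and 0.607 CPM in MEFs. Both adipose libraries stood above all others. Casp4 was lower in muscle than in adipose (log2 -3.2 ± 0.56, edgeR adjusted p = 0.0208) and in pancreas than in adipose (-3.86 ± 0.58, edgeR adjusted p = 0.00947). Pycard, the inflammasome adaptor, and Gsdmd, the pore-forming gasdermin, rose in all 3 tissues against MEFs, by 2.45 to 3.58 on the log2 scale. Casp8 fell in all 3, by 1.08 ± 0.24 in adipose, 1.52 ± 0.25 in muscle and 1.73 ± 0.25 in pancreas, and the adipose call was lost without MEF library 1 and with only the groups compared. The sensor genes Nlrp3, Nlrc4 and Aim2 did not pass the filter. The sensor genes Nlrp1a and Mefv passed it and were called higher in adipose than in MEFs. Nlrp1a had 11.7 and 3.65 CPM in adipose, 4.34 and 4.25 in muscle and 3.39 and 3.38 in pancreas, against 1.74 and 2.52 in MEFs. Its log2 fold change over MEFs was 1.83 ± 0.54 in adipose. Adipose library 2 lay below both muscle libraries, and in FPKM it lay below MEF library 2 (0.836 against 0.89). Mefv had 13 and 7 fragments in adipose, 3 and 13 in muscle and 0 and 13 in pancreas, against 0 in both MEF libraries. In adipose it was at least 7.04-fold higher than MEFs at the floor.

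The last list held genes known to respond to IL-1 in fibroblasts. Many of them also respond to other signals through NF-kB, and freshly sorted and cultured cells are compared here. Of 26 tested, 21 were higher and 3 lower than MEFs in adipose, 21 and 3 in muscle and 18 and 3 in pancreas. The 26 hold Ccl20 and Mmp13, which passed the filter only through MEFs, and Csf3, which passed it only through adipose. Of all genes 26.9%, 23.7% and 23.1% were higher and 23.2%, 20% and 19.4% lower in these contrasts. The list's median log2 fold change was 5.41 in adipose, 3.86 in muscle and 2.42 in pancreas, against 0.05, 0.03 and 0.02 over all genes. With genes at 0 fragments set at their bound the pancreas median was 2.02. Il6 had 244 and 210 CPM in adipose, 84 and 52.8 CPM in muscle and 28.6 and 28.3 CPM in pancreas, against 0.18 and 0.212 CPM in MEFs. The groups did not overlap, and the log2 fold change over MEFs was 10.14 ± 0.44 in adipose, 8.41 ± 0.42 in muscle and 7.14 ± 0.4 in pancreas (edgeR adjusted p = 3.14e-05, 4.44e-05 and 4.64e-05). The neutrophil chemokine Cxcl1 had 1020 and 1270 CPM in adipose, 767 and 508 CPM in muscle and 213 and 242 CPM in pancreas, against 3.78 and 3.73 CPM in MEFs, and it was 7.41 ± 0.41 higher in muscle and 5.92 ± 0.39 higher in pancreas on the log2 scale. Steap4, a metalloreductase gene, was 9.68 ± 0.9, 7.77 ± 0.84 and 7.45 ± 0.83 higher in adipose, muscle and pancreas.

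Between tissues, muscle had 1 higher and 11 lower than adipose, pancreas had 0 higher and 18 lower than adipose, and pancreas had 0 higher and 7 lower than muscle, where 6.12%, 9.05% and 3.67% of all genes were called. The medians were -1.71, -2.77 and -1.54, against -0.01, 0 and 0 over all genes. Marker sums of some other cells stood in the same order of tissues, with 255 to 300 CPM in adipose, 98.9 to 150 in muscle and 65.5 to 75.7 in pancreas for endothelial cells, and 40.2 to 84.8, 17.8 to 21.7 and 9.46 to 9.9 for macrophages and monocytes. In muscle and pancreas most of each sum was a single gene, Tek for endothelial cells and Cd14 for macrophages and monocytes. Tek was highest in muscle (86.3 and 102 CPM, against 51.6 and 83.6 in adipose), and Cd14 differed little between adipose (18.3 and 19.4 CPM) and muscle (17.7 and 14.7 CPM). Sums of the defining stromal markers (47200 to 60600, 39600 to 42900 and 25200 to 28700 CPM) and of muscle fibre markers stood in that order too. Mesothelial sums (77.8 to 97.7, 5.58 to 7.91 and 69.6 to 176 CPM) and acinar sums did not. The part of endothelial cells, macrophages and monocytes in the differences of the listed genes was not tested. The chemokine Ccl2 had 1080 and 717 CPM in adipose, 170 and 71.1 CPM in muscle and 33 and 32.6 CPM in pancreas, against 9.54 and 10.4 CPM in MEFs. Tnfaip3, which encodes the NF-kB inhibitor A20, had 434 and 349 CPM in adipose, 115 and 128 CPM in muscle and 23.3 and 24.6 CPM in pancreas, against 3.63 and 3.73 CPM in MEFs. Both genes stood in the order adipose, muscle, pancreas and MEFs with no overlap of groups.

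For Ccl2 muscle minus adipose was -2.9 ± 0.46 (edgeR adjusted p = 0.0141) and pancreas minus adipose was -4.77 ± 0.5 (edgeR adjusted p = 0.00353). For Tnfaip3 pancreas minus adipose was -4.03 ± 0.28 (edgeR adjusted p = 0.00173) and pancreas minus muscle was -2.34 ± 0.26 (edgeR adjusted p = 0.00514). Ccl7 and the acute-phase gene Saa3 were also lower in muscle than in adipose, at -2.65 ± 0.43 and -5.86 ± 0.88. Mmp3, a matrix protease, was the gene that rose in muscle against adipose (2.26 ± 0.5, edgeR adjusted p = 0.0425). Ptgs2, the inducible cyclooxygenase, had 54.9 and 142 CPM in adipose, 314 and 218 CPM in muscle and 31.3 and 49.2 CPM in pancreas, against 64 and 68.6 CPM in MEFs. It was lower in pancreas than in muscle (-2.72 ± 0.49, edgeR adjusted p = 0.0282). All 18 differences between tissues named for pathway genes lost their call without at least 1 library, and each kept it in 1 to 7 of 8 such fits with its direction unchanged. Tnfaip3 in pancreas against adipose kept it in 7, all but the fit without pancreas library 2, and Mmp3 kept it only without adipose library 2. The 18 hold those of Il18r1, which passed the filter only through muscle and whose calls are read for nothing.

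Cxcl5, Ccl20 and Mmp13 were the 3 genes of this list that fell in every tissue against MEFs. Ccl20 and Mmp13 passed the filter only through MEFs, so their falls are given as a description with no test. Cxcl5, a neutrophil chemokine, had 1.68 and 2.96 CPM in adipose, 0.51 and 0.3 CPM in muscle and 0.0521 and 0.052 CPM in pancreas, against 26.4 and 20.4 CPM in MEFs. Its ratio of pancreas to MEFs rests on 2 fragments and was 0.00222 (95% counting interval 0.000269 to 0.00804). These 3 stood with Il1rn and Il1rl1 on the side of genes with higher levels in MEFs. Summed over the 4 lists, adipose had 34 higher and 8 lower than MEFs, muscle 33 and 8, and pancreas 30 and 8, of 58 genes, where 50.1%, 43.8% and 42.5% of all genes were called. The 58 hold Il18r1, Il18rap, Ccl20, Mmp13 and Csf3, each of which passed the filter only through a single group. Between tissues the sums were 2 higher and 12 lower for muscle against adipose, 1 and 20 for pancreas against adipose, and 0 and 8 for pancreas against muscle, where 6.12%, 9.05% and 3.67% of all genes were called. The count for muscle against adipose was 0 when only the libraries of these 2 tissues were fitted.

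**Figure D4:**
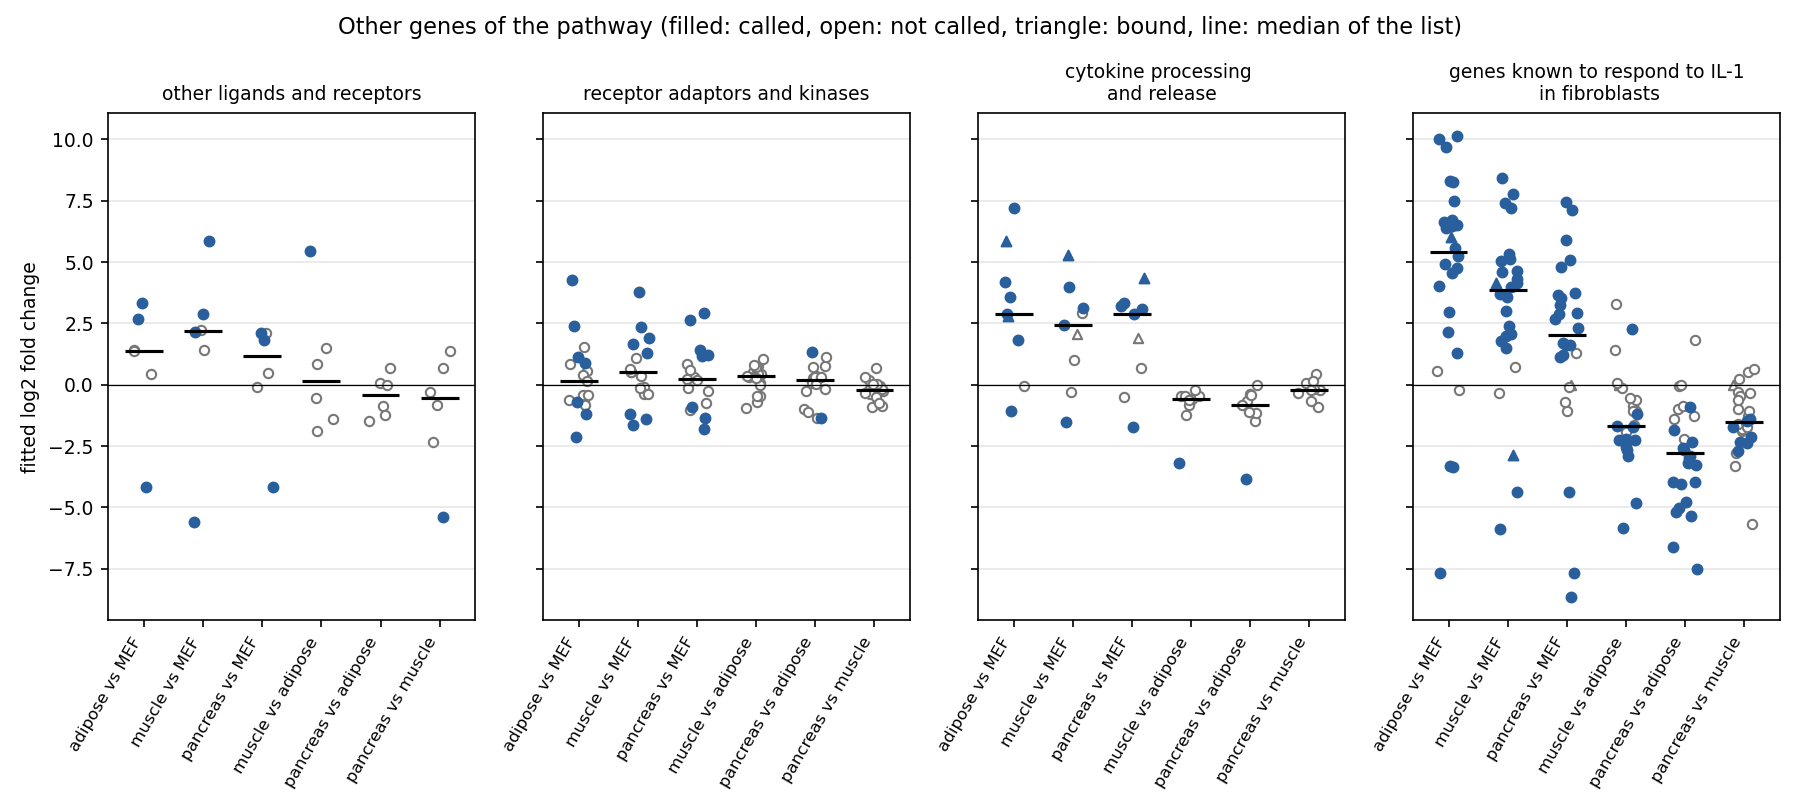
Fitted log2 fold changes of the 58 other pathway genes in 4 lists and 6 comparisons, filled where called at an adjusted p below 0.05, with a line at the list's median and triangles at the bound where a group had 0 fragments. Genes known to respond to IL-1 lie mostly above 0 against MEFs and mostly below 0 in pancreas against adipose.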

How the data were processed

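RNA from 8 libraries, 2 per group, was amplified with MessageAmp and made into Illumina mRNA libraries, per the labels' protocols. Per the file headers, the authors deposited estimated counts per gene, adjusted for bias, matching FPKM values, and a table of RPKM values. Build mm9 and the tools HTSeq, TopHat2, edgeR and Bowtie2 are named, without roles, in the submitters' processing notes. Which program adjusted for bias was not stated there. Another 6 columns were not used.

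A test of whole counts had been planned. The estimated counts were rounded and tested with edgeR 4.0.16 in R 4.3.3 (quasi-likelihood, TMM, filterByExpr), with all 8 libraries in 1 fit, 4 residual degrees of freedom and a biological variation (common BCV) of 33.2%. Of 22558 genes 14847 were tested. Calls were made at 0.05 after Benjamini-Hochberg adjustment over these genes in each of 6 comparisons. The 2 libraries per group are duplicate experiments, and p-values measure the spread between them. The genes and lists were chosen with earlier results of these data known. Named pathway genes were up to 4 called genes per list and comparison with the largest fold provided the higher group reached 5 CPM in both libraries. Casp1, Nlrp1a, Mefv, Il1a, Il18rap, Ccl20, Csf3, Map3k7 in muscle, Peli2 in pancreas and Mmp13 were chosen after values were seen. So were the single marker genes named and the promoters printed. A group at 0 gives a fold only as a bound at a floor of 3 fragments per library, and 1 to 3 fragments give a ratio with a 95% counting interval, for counting error only. The RPKM values were whole multiples of 1 step per gene, which gave whole reads for 20032 genes (tolerance 0.01 reads, 9496872 to 16807605 per library). No step was found for 1641 genes, and 936 were 0 throughout. Alternatives were other scalings, filters, limma 3.58.1 on log2 FPKM, DESeq2 1.42.0, fits of the compared groups alone, a replicate block, recovered reads and each library left out. Promoters came from RefSeq, by symbol, for all 8 genes (13 starts).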

Additional observations from a re-analysis of the deposited data

Results flagged for a closer look

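Of the 8 genes, 3 differed between FAP+ tissues in their distance from MEFs, by the edgeR test of that difference, and this marked them for a closer look. Against muscle, pancreas was at -7.49 for Il1r2, -2.88 for Il1rl1 and -2.45 for Il18 on the log2 scale. Against adipose, pancreas was at -5.13 for Il1r2 and -2.85 for Il1rl1. Il1b was at -5.24 in pancreas and -4.73 in muscle against adipose, but it passed the filter on low values only through adipose, and its fitted values rest on 3 fragments in muscle and 2 in pancreas and depend on the prior count.

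Il18r1 was at 5.46 in muscle against adipose and -5.39 in pancreas against muscle. It passed the filter only through muscle, so these values are a description with no test. Other pathway genes met the edgeR test of a difference between tissues. Muscle against adipose was at -3.2 for Casp4, -5.86 for Saa3, -2.9 for Ccl2, -2.65 for Ccl7 and 2.26 for Mmp3. Pancreas against adipose was at -1.34 for Irak3, 1.32 for Tab1, -3.86 for Casp4, -5.21 for Saa3, -5.03 for Ccl7, -4.77 for Ccl2 and -4.03 for Tnfaip3. Pancreas against muscle was at -2.72 for Ptgs2, -2.38 for Ccl7, -2.34 for Tnfaip3 and -2.12 for Cxcl2.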

How the results depend on the processing

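Of the counts of called genes, 172 stayed within 1.5 times the value reported over the alternatives and 56 moved, nearly all of them between tissues, where the cause was not tested unless stated. The 172 include counts of the 8 genes against MEFs, the contrasts that chose the genes. Those counts stayed in all 19 alternatives in each tissue and are read for nothing. For muscle against adipose, 1 of the 8 genes (Il1b) was called. The count was 2 with upper quartile scaling, 3 with DESeq2, 0 with at least 5 CPM in 2 libraries, 0 with the 2 tissues fitted alone, which leaves fewer libraries, 2 with limma on log2(FPKM + 1), 4 with limma on genes at 1 FPKM in 2 libraries, 2 with recovered reads, and 0 to 2 with each library left out. The 14 pathway genes of that comparison became 0 in the groups alone, 7 with limma on log2(FPKM + 1), 5 on log2(FPKM + 0.1), 9 with the 1 FPKM filter, 22 with recovered reads and 0 to 27 with each library left out. For pancreas against adipose, the 3 became 1 in the groups alone, 1 with limma on log2(FPKM + 0.1) and 0 to 5 with each library left out, and the 21 pathway genes became 11, 13 with limma on log2(FPKM + 1) and 0 to 30. For pancreas against muscle, the 3 became 0 to 4 with each library left out, and the 8 pathway genes became 13 with DESeq2, 19 in the groups alone, 3, 4 and 4 in the 3 limma fits and 0 to 16. The 38 pathway genes of pancreas against MEFs became 24 to 44. Directions turned for 4 differences that had not passed. Il1rl1 in muscle against adipose was -0.02 with RLE scaling and with DESeq2, -0.8 with recovered reads and -0.73 to 0.56 with each library left out. Il1rap in pancreas against adipose was -0.43 with recovered reads and -0.07 to 0.71. Il33 in pancreas against muscle was -0.13 to 0.51 and Il1b there -3.92 to 0.41. Of the fitted values of the 8 genes against MEFs, 353 moved by less than the spread between replicates and 98 by more. Of the values named for pathway genes, 929 kept their call, 116 lost it and none turned. These values include those of Il18r1, which passed the filter only through muscle. FPKM shifted the centre of all genes. With the 1 FPKM filter the median of adipose against MEFs was -0.93 and 19.3% of calls were higher, against 0.05 and 53.6% with edgeR. For muscle and pancreas against MEFs these shares were 27.3% and 31.6% with that filter, against 54.2% and 54.4%. Between tissues the limma fits gave 49.5 to 57.9% for muscle against adipose, 59 to 63.5% for pancreas against adipose and 50.8 to 54.7% for pancreas against muscle, against 38.2%, 36.7% and 41.8% with edgeR. Upper quartile scaling gave 47.1% for pancreas against adipose, with a median of 0.14. The 2 libraries per group and the low fragment numbers of Il1b, and of Il1rn and Il1rl1 in FAP+ cells, limit what could be detected.

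Replicate numbers are shared between groups, and whether they mark a common day is not given. Deviations of same-numbered libraries correlated at 0.208 between muscle and adipose, at 0.447 between pancreas and adipose, at 0.047 between pancreas and muscle, and at -0.216 to -0.035 with MEFs. With 2 libraries per group these values cannot show whether the numbers pair libraries. The main fit left the numbers out, and a fit with a replicate block is given as an alternative. With the replicate block, Il1rl1 in muscle against adipose was -0.06, Il1b in muscle against adipose lost its call at -4.7, and Il1r2 there gained one at 2.73. Calls of Irak3 in pancreas against adipose (-1.34), Mmp3 in muscle against adipose (2.23) and Cxcl2 in pancreas against muscle (-2.15) were lost as well.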
